A study of Mus musculus with 4 samples.

Results

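The genes described are 48 enzymes and transporters of the urea cycle, of ammonia and glutamine handling and of amino acid breakdown, picked by gene symbol from the 32292 features of the count tables (32285 annotated mouse genes and 7 added sequences). All 48 symbols were found. They comprise 6 urea cycle enzymes, 2 mitochondrial carriers, 7 genes of glutamine and ammonia metabolism, 4 of histidine, 3 of serine, 5 of tyrosine and 4 of tryptophan breakdown, 4 transaminases, 5 genes of lysine, proline and valine breakdown and 8 of methionine and one-carbon metabolism. Nuclei were isolated from fresh-frozen livers of male mice, with paraformaldehyde added to the homogenate, and sequenced with the 10x Genomics 3' v3.1 chemistry. CKO mice carried a knockout of Rbpj, the DNA-binding partner of the Notch receptors, specific to hepatic progenitor cells. WT mice did not. Mice of both genotypes had eaten DDC, a porphyrinogenic diet used to model cholestatic bile duct injury, for 4 weeks starting when they were 10 to 11 weeks old, and each genotype has 2 libraries. The labels name no Cre driver and do not say whether the replicates were separate animals, so the p-values measure only the spread between these libraries.

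Hepatocytes remove ammonia along the path of the blood through the lobule. Urea synthesis and liver glutaminase are known from hepatocytes near the portal tract, whereas glutamine synthetase is known from a narrow rim around the central vein, where Wnt signalling is active and left-over ammonia is fixed into glutamine. Most enzymes that break down amino acids supply nitrogen to this system, and many are under the control of glucagon, glucocorticoids and feeding.

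The libraries held 38003108 and 12261329 UMIs in 16000 and 5184 barcodes (CKO replicates 1 and 2) and 45620141 and 13914845 UMIs in 16000 and 6480 barcodes (WT replicates 1 and 2). Between 19 and 114 barcode sequences were shared by each pair of libraries. Barcodes with at least 3000 UMIs, of which fewer than 0.5% came from 73 nonparenchymal marker genes, were taken as hepatocyte nuclei: 1424 and 902 in CKO and 2699 and 707 in WT libraries. Summed secreted hepatocyte transcripts (14 genes, Alb and Apoa1 among them) stood at 41440.1 and 28835 CPM (UMIs scaled to a common total) in these CKO nuclei and 22425 and 23452 in the WT nuclei. Summed cholangiocyte markers stood at 319 and 147 in CKO and 519.5 and 281 in WT, and macrophage markers at 486 and 64.99 in CKO and 325 and 86.7 in WT. The secreted transcripts took 4.16% and 2.63% of UMIs in these CKO nuclei and 2.48% and 2.28% in the WT nuclei. In the 10% of barcodes with the fewest UMIs they took more, 7.33% and 5.88% in CKO and 5.02% and 5.24% in WT. The gate itself limits the nonparenchymal markers, so neither set of values checks that these are hepatocyte nuclei. The share of these nuclei in which 10 hepatocyte nuclear transcripts lay at 2 times or more their level in the barcodes with the fewest UMIs was 51.9% and 93.7% in CKO and 66.95% and 91.1% in WT libraries. They are called hepatocyte-rich nuclei below. The median mitochondrial share of the hepatocyte nuclei was 2.46% and 0.280% in CKO and 0.753% and 0.164% in WT libraries. Over all barcodes Rbpj stood at 53.7 and 33.2 CPM in CKO and 76.2 and 42.1 in WT libraries, which overlap. Since 3' tags need not lie in the deleted part and the deletion is, by its label, one of progenitor cells, this does not check the genotypes. The CKO libraries were unlike each other. Transcripts known to be male-biased in mouse liver summed to 794 and 7856 CPM in CKO replicates 1 and 2, against 5708 and 5557 in WT, and female-biased ones to 737 and 11.9 in CKO, against 126 and 87.6 in WT. All 4 libraries nevertheless held the Y-linked transcript Uty (4341 and 1286 UMIs in CKO, 8432 and 1524 in WT) and at most 13 UMIs of Xist. Arntl, a gene of the circadian clock, stood at 72.4 and 7.58 in CKO and 18.4 and 42.6 in WT hepatocyte nuclei. The values that lead the genotype comparisons are therefore also given without CKO replicate 1. All levels are CPM, with edgeR's TMM factors applied where sums were tested. Since 3' tags of nuclear RNA depend on the transcript, levels are compared between samples and not between genes.

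Along the lobule, Glul, which puts ammonia into glutamine, and the glutamate transporter Slc1a2 lay at one end, and genes that release ammonia from histidine, serine and glutamine at the other. Slc1a2 and Glul were highest in pericentral nuclei, at fitted differences of 3.81 and 1.62 on the log2 scale. Sds, Hal, Sdsl and Gls2 were highest in periportal nuclei, at -2.52, -1.74, -1.60 and -1.30. All 4 genes of histidine breakdown were lower in pericentral nuclei, and of the 6 urea cycle enzymes Arg1 alone passed the test, also lower. The zone of a nucleus was read from the share of pericentral transcripts among the UMIs of 19 pericentral and 12 periportal genes, none of which is among the 48, in nuclei with at least 5 such UMIs. Nuclei were ranked by this index within each library and split into 3 parts. The highest part was taken as the pericentral set (504 and 301 nuclei in CKO, 902 and 249 in WT) and the lowest as the periportal set (493 and 309 in CKO, 917 and 270 in WT). The limits were 0.667 and 0.8 in CKO replicate 1 but between 0.4 and 0.667 in the other libraries, so the sets are relative to their own library. UMIs were summed per library and set and tested with edgeR's quasi-likelihood test with the library as a block and Benjamini-Hochberg adjustment over all 11937 genes. Of the 48 members 47 passed the filter on low counts. Of these, 4 were higher and 9 lower in the pericentral set at an adjusted p under 0.05, against 3.33% of all genes tested in either direction (1.78% higher and 1.55% lower). Rhbg, an ammonia channel, was too low to be tested. Without a model, 14 of the tested members were higher in the pericentral set in 4 of 4 libraries, against 9.86% of all genes tested, and 15 were lower in 4 of 4, against 8.77%. All 13 called members also passed without CKO replicate 1. The 10 cholangiocyte markers all had a negative difference in the same fit (median -0.29), and 1 of them passed. Their part in the member values was not tested.

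**Figure D1:**
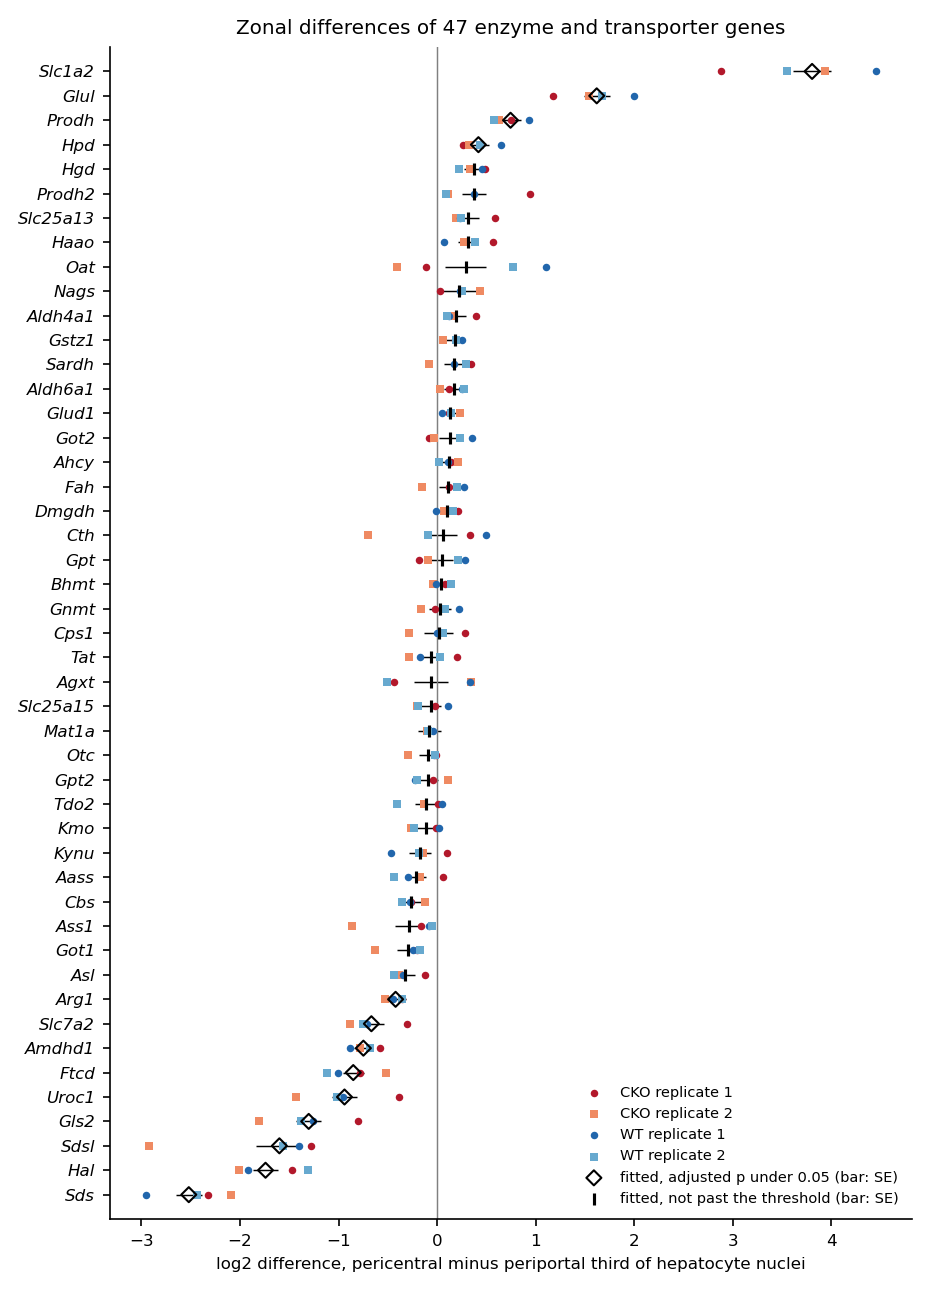
The horizontal axis gives the log2 difference between the pericentral and the periportal set of hepatocyte nuclei for each of the 47 tested members (vertical axis), with 1 point per library and the fitted value with its SE in black. Diamonds mark the 13 members past the adjusted p of 0.05, which fill both ends, and the points of the urea cycle enzymes Cps1 and Otc lie close to 0.

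The pericentral end was led by Slc1a2 (ENSMUSG00000005089, chromosome 2, 102658659 to 102790784 of GRCm38), which encodes the glutamate transporter GLT-1. Its level was 264 and 370.4 in CKO and 361 and 105 in WT libraries in the pericentral set, and 35.2 and 23.5 in CKO and 15.8 and 8.28 in WT libraries in the periportal set. All 4 libraries were higher in the pericentral set, and the sets do not overlap. The sums held between 11 and 1784 UMIs. The fitted difference was 3.81 (SE 0.195, adjusted p = 5.42e-10). Glul (ENSMUSG00000026473, chromosome 1, 153899944 to 153909723) encodes glutamine synthetase and had 137 and 236 in CKO and 119 and 59.4 in WT libraries in the pericentral set, and 60.1 and 80.6 in CKO and 29.2 and 18.1 in WT libraries in the periportal set. It too was higher in the pericentral set of every library, with a difference of 1.62 (SE 0.133, adjusted p = 1.96e-07), although the pericentral level of WT replicate 2 lay under the periportal levels of both CKO libraries. The hepatocyte-rich nuclei of each library were also split into 5 bins of equal size, bin 1 the most periportal and bin 5 the most pericentral, with 128 to 362 nuclei each. Slc1a2 was low in the periportal bins and far higher in bin 5. It stood at 21.7, 122 and 470.5 CPM in bins 1, 3 and 5 of CKO replicate 1 and at 23.6, 48.5 and 449 in CKO replicate 2, against 12.03, 18.1 and 749 in WT replicate 1 and 7.74, 12.5 and 171 in WT replicate 2. The bins are relative to their library, and the median index of bin 3 was 0.778 and 0.526 in CKO and 0.5 and 0.577 in WT libraries. Glul was 4.72 and 4.15 times as high in bin 5 as in bin 1 in CKO and 7.11 and 3.73 times in WT libraries.

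The periportal end was led by Sds (ENSMUSG00000029597, chromosome 5, 120476526 to 120483932), serine dehydratase, which turns serine into pyruvate and ammonia. Its level was 21.8 and 48.6 in CKO and 24.1 and 85.2 in WT libraries in the pericentral set, and 112 and 209 in CKO and 191 and 464 in WT libraries in the periportal set. All periportal values exceeded all pericentral ones, and the difference was -2.52 (SE 0.131, adjusted p = 5.42e-10). Its neighbour Sdsl (ENSMUSG00000029596, chromosome 5, 120458186 to 120472810), the serine dehydratase-like gene on the other strand, had 7.62 and 0.772 in CKO and 7.09 and 13.8 in WT libraries in the pericentral set, and 19.6 and 10.9 in CKO and 20.04 and 42.1 in WT libraries in the periportal set. It was lower in the pericentral set of all 4 libraries, with a difference of -1.60 (SE 0.234, adjusted p = 0.000255) that was largest in CKO replicate 2, where the pericentral sum held 1 UMI. Agxt, the alanine-glyoxylate aminotransferase that also uses serine, differed by -0.06 (SE 0.173, adjusted p = 0.978) and fell on opposite sides of 0 in the libraries of each genotype.

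Hal (ENSMUSG00000020017, chromosome 10, 93488768 to 93519304), histidase, releases ammonia from histidine in the first step of its breakdown. Its level was 42.8 and 67.1 in CKO and 47.4 and 39.6 in WT libraries in the pericentral set, and 120.2 and 272 in CKO and 181 and 99.3 in WT libraries in the periportal set. The sets do not overlap and the difference was -1.74 (SE 0.122, adjusted p = 2.40e-08). The enzymes of the next steps went the same way. Uroc1, urocanase, had 126 and 143 in CKO and 97.99 and 163 in WT libraries in the pericentral set, and 164 and 387 in CKO and 190.1 and 331 in WT libraries in the periportal set. Amdhd1, imidazolonepropionase, had 72.2 and 108 in CKO and 114 and 114 in WT libraries in the pericentral set, and 109 and 186 in CKO and 210.3 and 184 in WT libraries in the periportal set. For Ftcd, the formimidoyltransferase that passes the last one-carbon unit to folate, the levels were 101 and 238 in CKO and 101 and 102 in WT libraries in the pericentral set, and 174 and 341 in CKO and 202 and 224 in WT libraries in the periportal set. Uroc1 differed by -0.94 (SE 0.128, adjusted p = 0.000123), Amdhd1 by -0.75 (SE 0.0997, adjusted p = 9.78e-05) and Ftcd by -0.85 (SE 0.108, adjusted p = 5.74e-05). Each of these was lower in the pericentral set of 4 of 4 libraries. In bin 5 Hal stood at 0.112 and 0.168 times its level in bin 1 in CKO and 0.1098 and 0.246 times in WT libraries, and Sds 0.0439 and 0.183 times in CKO and 0.0505 and 0.0995 times in WT libraries. Both declined over the bins from the periportal end onward, in all but 2 of the 8 profiles without a break.

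The bases before the start sites of members with large zonal differences are shown because these genes stand at the ends of the index. Of the 6 members with the most positive (Slc1a2, Glul, Prodh) and the most negative (Sds, Hal, Sdsl) zonal differences, 4 had an entry in the RefSeq promoter table (GRCm38.p6). Sds and Sdsl are named only. The 250 bases upstream were searched on both strands for CTTTGA (the core bound by the TCF/LEF factors of Wnt signalling), CAAAGTC (HNF4), TTGCNNAA (C/EBP), TGACG (the cAMP response element) and TGTTCT (the glucocorticoid receptor). CTTTGA on one strand and CAAAGTC on the other can overlap, and no matches overlap in the windows shown. The sequences run 5′ to 3′ on the strand of the gene, and capitals mark matches on either strand.
Slc1a2, chr2:102706188-102706437, plus strand: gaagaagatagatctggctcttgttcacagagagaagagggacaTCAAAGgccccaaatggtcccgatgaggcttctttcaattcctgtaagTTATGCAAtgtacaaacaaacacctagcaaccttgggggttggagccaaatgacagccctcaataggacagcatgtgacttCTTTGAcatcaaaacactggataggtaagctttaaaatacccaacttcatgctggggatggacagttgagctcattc
Glul, chr1:153899679-153899928, plus strand: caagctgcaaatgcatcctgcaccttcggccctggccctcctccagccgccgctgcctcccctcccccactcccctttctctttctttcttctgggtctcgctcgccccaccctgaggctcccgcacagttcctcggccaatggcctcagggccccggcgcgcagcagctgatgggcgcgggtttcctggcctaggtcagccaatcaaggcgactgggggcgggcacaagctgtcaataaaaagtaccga
Hal, chr10:93488518-93488767, plus strand: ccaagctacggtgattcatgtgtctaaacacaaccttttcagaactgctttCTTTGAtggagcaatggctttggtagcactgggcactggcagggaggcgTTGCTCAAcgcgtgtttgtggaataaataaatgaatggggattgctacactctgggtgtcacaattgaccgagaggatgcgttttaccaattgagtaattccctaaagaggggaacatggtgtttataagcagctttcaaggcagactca
The Slc1a2 window holds CTTTGA at -206 (on the minus strand) and -77 and TTGCNNAA at -158 (on the minus strand), counted back from the start site, and the Hal window holds CTTTGA at -199 and TTGCNNAA at -150. The windows of Glul and of Prodh (chr16:18089191-18089440, minus strand) hold none of these letters. The Slc1a2 and Prodh windows lie before the RefSeq start but inside the longer gene models of GENCODE M21. CTTTGA was found in 13.8% of all 32851 promoters of the table and in 9 of the 39 promoters of members, and TTGCNNAA in 9.56% of all and 5 of the 39. CAAAGTC was found in 3.84% of all and 1 of the 39, TGACG in 17.8% and 4, and TGTTCT in 16.1% and 2. A match describes letters only, and the Wnt core stood in a window from each end of the lobule.

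**Figure D2:**
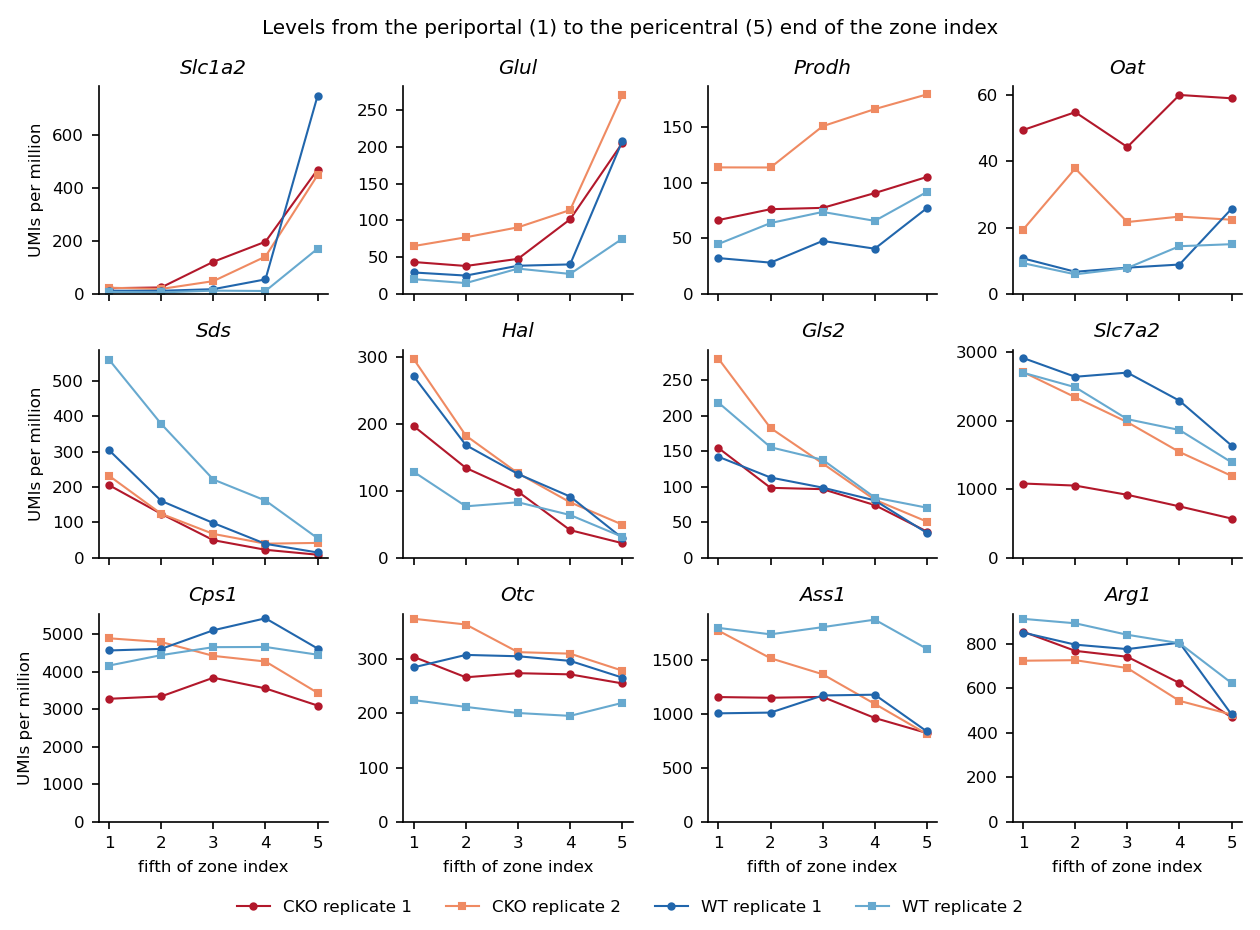
Each panel plots the CPM of 1 gene (vertical axis, from 0) in 5 bins of equal size of the hepatocyte-rich nuclei of each library, ordered by the zone index and numbered 1 (periportal) to 5 (pericentral). Slc1a2 and Glul are highest in bin 5, Sds, Hal, Gls2 and Slc7a2 in bin 1, and the Cps1 and Otc lines are close to level.

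The other glutamine and ammonia genes divided between the ends. Gls2 (ENSMUSG00000044005, chromosome 10, 128194457 to 128210004), the liver glutaminase that frees ammonia from glutamine, had 61.7 and 70.99 in CKO and 44.1 and 72.3 in WT libraries in the pericentral set, and 108 and 251 in CKO and 107 and 189 in WT libraries in the periportal set. The sets do not overlap, and the difference was -1.30 (SE 0.1297, adjusted p = 2.97e-06). Slc7a2, the cationic amino acid transporter CAT2 that carries arginine and ornithine, had 585 and 1408 in CKO and 1378 and 1523 in WT libraries in the pericentral set, and 723 and 2597 in CKO and 2260.5 and 2569 in WT libraries in the periportal set. The difference within a library was -0.31 and -0.88 in CKO and -0.71 and -0.75 in WT, and the fitted one -0.67 (SE 0.128, adjusted p = 0.00392). CKO replicate 1 was low in both sets. Glud1, glutamate dehydrogenase, differed by 0.13 (SE 0.101, adjusted p = 0.807), and Oat, ornithine aminotransferase, by 0.29 (SE 0.211, adjusted p = 0.794) with opposite signs in the genotypes.

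The fitted differences of the 6 urea cycle enzymes lay between -0.42 and 0.22. Cps1, carbamoyl phosphate synthetase, which brings ammonia into the cycle, had 2974 and 4083 in CKO and 3764 and 4443 in WT libraries in the pericentral set, and 2446 and 4968 in CKO and 3756 and 4250.1 in WT libraries in the periportal set, a difference of 0.02 (SE 0.145, adjusted p = 0.995). The libraries fell on both sides of 0. Otc, ornithine transcarbamylase, differed by -0.09 (SE 0.09701, adjusted p = 0.901), and Ass1, argininosuccinate synthetase, by -0.29 (SE 0.136, adjusted p = 0.459), of which CKO replicate 2 gave the most (-0.87 within that library, against -0.17 in CKO replicate 1 and -0.08 and -0.05 in WT). Asl, argininosuccinate lyase, was lower in 4 of 4 libraries, by -0.32 (SE 0.0966, adjusted p = 0.0874), and missed the threshold. Arg1, arginase, had 593 and 540.1 in CKO and 507 and 701 in WT libraries in the pericentral set, and 759 and 779 in CKO and 689 and 899 in WT libraries in the periportal set, and its difference of -0.42 (SE 0.103, adjusted p = 0.0266) passed. It did not pass without CKO replicate 2 (adjusted p = 0.202) or without WT replicate 2 (adjusted p = 0.195). Nags, which makes the activator of Cps1, differed by 0.22 (SE 0.199, adjusted p = 0.866). Of the carriers, Slc25a15 (ornithine) differed by -0.06 (SE 0.0991, adjusted p = 0.948) and Slc25a13 (citrin, the aspartate-glutamate carrier) by 0.31 (SE 0.111, adjusted p = 0.188).

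Among the remaining 26 members, 2 passed the test, both higher in the pericentral set. Prodh, proline dehydrogenase, had 91.4 and 183 in CKO and 51.02 and 80.01 in WT libraries in the pericentral set, and 53.9 and 118 in CKO and 26.3 and 53.4 in WT libraries in the periportal set, a difference of 0.75 (SE 0.111, adjusted p = 0.000315). Hpd, which converts hydroxyphenylpyruvate to homogentisate in tyrosine breakdown, had 452 and 1526 in CKO and 533 and 789 in WT libraries in the pericentral set, and 378 and 1215 in CKO and 341 and 583 in WT libraries in the periportal set. It was higher in the pericentral set of all 4 libraries, and the fitted difference was 0.42 (SE 0.108, adjusted p = 0.0381). Hpd did not pass without WT replicate 1 (adjusted p = 0.126), without WT replicate 2 (0.299), without CKO replicate 2 (0.0815) or with an index that leaves out Cyp2e1 and Cyp2f2 (0.0774). Hgd, the next enzyme of that path, differed by 0.38 (SE 0.106, adjusted p = 0.0618) and was higher in 4 of 4 libraries. The tryptophan genes Tdo2, Kmo, Kynu and Haao, the transaminases and the 8 methionine and one-carbon genes did not pass, with fitted differences between -0.29 (Got1) and 0.31 (Haao). The cytosolic transaminase Got1 was lower in 4 of 4 libraries and its mitochondrial counterpart Got2 in 2 of 4, and Haao, the last enzyme before quinolinate, was higher in 4 of 4. In the hepatocyte-rich nuclei 22 members passed, 8 higher and 14 lower, against 8.38% of 10909 genes (4.34% higher and 4.04% lower). These 22 held all 13 named above and in addition Haao (0.29), Slc25a13 (0.30), Prodh2 (0.36) and Hgd (0.39) on the higher side and Cbs (-0.42), Asl (-0.35), Ass1 (-0.33), Aass (-0.24) and Kynu (-0.24) on the lower side. Slc1a2 then differed by 4.74 and Sds by -2.94. The restriction was chosen after the data were seen.

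A further list of 50 genes of amino acid metabolism outside the 48 served for comparison. Of its 45 tested genes, 1 passed between the sets. Gldc, the decarboxylase of the glycine cleavage system, which frees ammonia and a one-carbon unit, had 90.3 and 52.5 in CKO and 49.4 and 102 in WT libraries in the pericentral set, and 224 and 349.9 in CKO and 239.7 and 329 in WT libraries in the periportal set, a difference of -1.96 (SE 0.1596, adjusted p = 1.75e-07). All periportal values lay above all pericentral ones. In the hepatocyte-rich nuclei 6 of the 45 tested passed, 5 higher and 1 lower, against 8.38% of all genes. The median of the 45 was 0.02, close to the 0.00 of all genes tested and to the 0.02 of the 47 members.

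After scaling by secreted hepatocyte transcripts, the 48 transcripts lay, on the median, near the level of the barcodes with the fewest UMIs in endothelial, mesenchymal, cholangiocyte and macrophage nuclei. In hepatocyte nuclei they lay above it after that scaling. Barcodes with at least 1000 UMIs, at least 3 markers of a class and at least 0.5% of UMIs from its markers numbered 217 and 54 (endothelial) and 300 and 59 (mesenchymal) in CKO, against 893 and 124 and 514 and 111 in WT libraries. Cholangiocyte barcodes numbered 102 and 7 in CKO and 619 and 100 in WT, and macrophage barcodes 30 and 4 in CKO and 67 and 9 in WT, and a library with fewer than 20 was left out. Each level was divided by that of the 10% of barcodes with the fewest UMIs of the library, taken as a measure of free RNA and scaled to the class by the secreted hepatocyte transcripts. These barcodes held 1823 to 1855 and 1543 to 1582 UMIs in CKO and 1817 to 1865 and 1465 to 1495 in WT libraries. All exceed the 1000 UMIs asked of a class, so nuclei of any class can be among them. A ratio near 1 therefore does not show that a class holds only free RNA. The median ratio over members was 0.986 and 0.924 in CKO and 0.971 and 0.959 in WT endothelial nuclei and 0.977 and 1.06 in CKO and 1.05 and 1.07 in WT mesenchymal nuclei. It was 1.04 in CKO and 1.09 and 1.15 in WT cholangiocyte nuclei, and 1.03 in CKO and 1.02 in WT macrophage nuclei. No member reached 2 times in every library used of any of these classes. In hepatocyte nuclei the median was 1.83 and 2.67 in CKO and 2.78 and 3.84 in WT, and 19 members reached 2 times in all 4 libraries.

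In hepatocyte-rich nuclei 27 members reached 2 times in all 4 libraries, after the same scaling. Slc7a2 stood at 10.1 and 8.04 times in CKO and 11.6 and 12.96 times in WT libraries, Kynu, kynureninase, at 13.2 and 7.43 times in CKO and 9.004 and 10.5 times in WT libraries, and Prodh2, hydroxyproline dehydrogenase, at 10.9 and 7.18 times in CKO and 8.42 and 7.23 times in WT libraries. Slc25a13 and Cps1 stood at 7.54 to 10.6 and 3.98 to 5.91 times over the libraries. Aass stood at 4.27 to 9.19 times over the libraries, Cth at 3.27 to 6.97, Hgd at 4.05 to 6.36 and Amdhd1 at 3.94 to 7.12. Ftcd stood at 3.79 to 4.48 times over the libraries, Prodh at 3.77 to 5.62, Tat at 3.67 to 6.28 and Kmo at 3.46 to 5.01. Slc1a2 stood at 3.37 to 7.41 times over the libraries, Haao at 3.32 to 5.88, Dmgdh at 3.19 to 6.43 and Uroc1 at 2.95 to 6.06. Gpt2 stood at 2.87 to 5.19 times over the libraries, Sardh at 2.81 to 4.199, Bhmt at 2.57 to 4.15 and Aldh4a1 at 2.57 to 3.57. Gls2 stood at 2.36 to 6.05 times over the libraries, Glud1 at 2.34 to 2.92, Hal at 2.26 to 4.94 and Sds at 2.24 to 6.86. Gstz1 and Ass1 completed the 27 at 2.16 to 3.34 and 2.09 to 4.84 times. The 27 include all 4 genes of histidine breakdown and 3 of the 4 tryptophan genes, but Cps1 and Ass1 alone of the urea cycle. Otc stood at 1.78 to 2.85 times over the libraries, Arg1 at 1.83 to 3.08, Asl at 1.75 to 3.63 and Nags at 1.37 to 2.36. At the other end Oat stood at 0.878 and 0.917 times in CKO and 0.741 and 1.72 times in WT libraries, and Agxt at 1.37 and 0.993 times in CKO and 1.21 and 1.296 times in WT libraries. For Oat the level in hepatocyte-rich nuclei was thus, after scaling, below that of the barcodes with the fewest UMIs in 3 of 4 libraries. Among the non-hepatocyte values, Nags stood at 1.96 times in CKO and 1.63 and 1.95 times in WT cholangiocyte nuclei, on as few as 4 UMIs in a library. Gpt2, the mitochondrial alanine transaminase, stood at 1.53 times in CKO and 1.75 and 1.72 times in WT cholangiocyte nuclei, and Aass, the first enzyme of lysine breakdown, at 1.79 and 1.52 times in CKO and 1.79 and 1.33 times in WT libraries in endothelial nuclei. The ratios of a class share their library and its free RNA and carry no test.

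**Figure D3:**
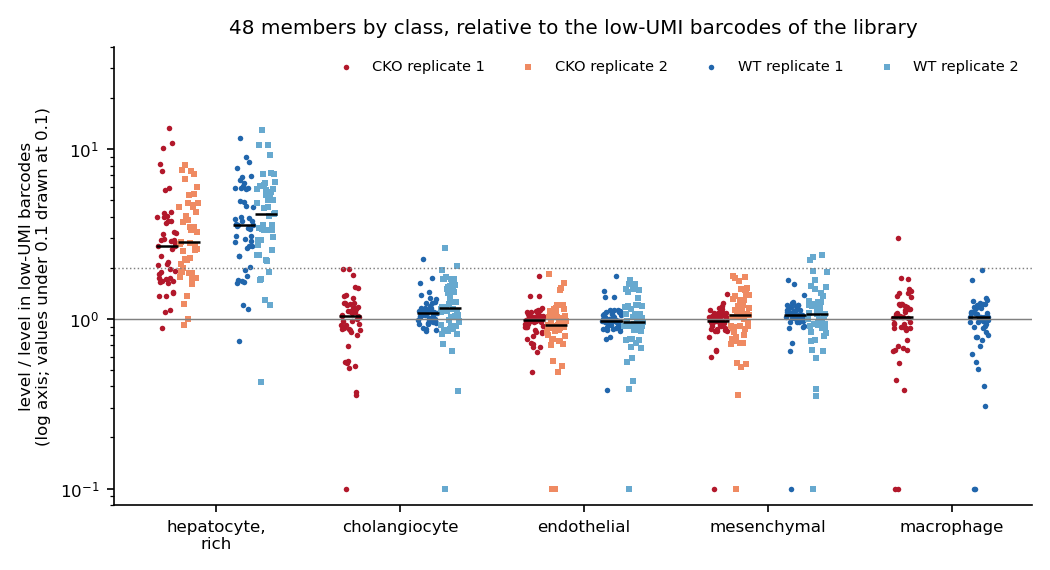
The vertical axis (log scale) gives the level of each of the 48 members relative to the barcodes with the fewest UMIs of the same library, by class and library, with the median as a bar and ratios under 0.1 drawn at 0.1. The ratios are scaled by the secreted hepatocyte transcripts, which raises those of hepatocyte nuclei and of the other classes. Without scaling, the members took a smaller share of UMIs in the other classes than in the barcodes with the fewest UMIs of the same library. Hepatocyte-rich nuclei have medians from 2.68 to 4.17, and the other classes lie around 1.

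Between the genotypes no member passed the test in hepatocyte nuclei. None of the 48 and none of 13849 genes (0%) had an adjusted p under 0.05 in edgeR's quasi-likelihood test, and at an unadjusted p under 0.05 there were 3 members and 161 genes. DESeq2 called 0 members and 3 genes (Scd1, Cyp4a10 and Serpina1d, all higher in CKO, named after their values were seen). The fitted log2 change was positive for 34 members and negative for 14, with a median of 0.26 beside 0.01 for all genes. The sign of that median rested on CKO replicate 2. With CKO replicate 2 left out it was -0.30, and with CKO replicate 1 left out 0.63. Leaving out WT replicate 1 gave 0.12, and leaving out WT replicate 2 gave 0.48. In hepatocyte-rich nuclei it was 0.20. CKO replicate 2 was above both WT libraries for 32 members and CKO replicate 1 for 14, while CKO replicate 1 was below both for 18. Of the 47 tested genes of the further amino acid list, CKO replicate 2 was above both WT libraries in 34. CKO replicate 1 was above both in 17 of them and below both in 15. Shares over all genes were not computed, so these counts do not set the members apart. The members together took 1.53% and 2.46% of the UMIs of CKO and 1.91% and 2.29% of those of WT hepatocyte nuclei. In sums over nuclei, fewer nuclei of a kind and less RNA in each cannot be told apart.

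**Figure D4:**
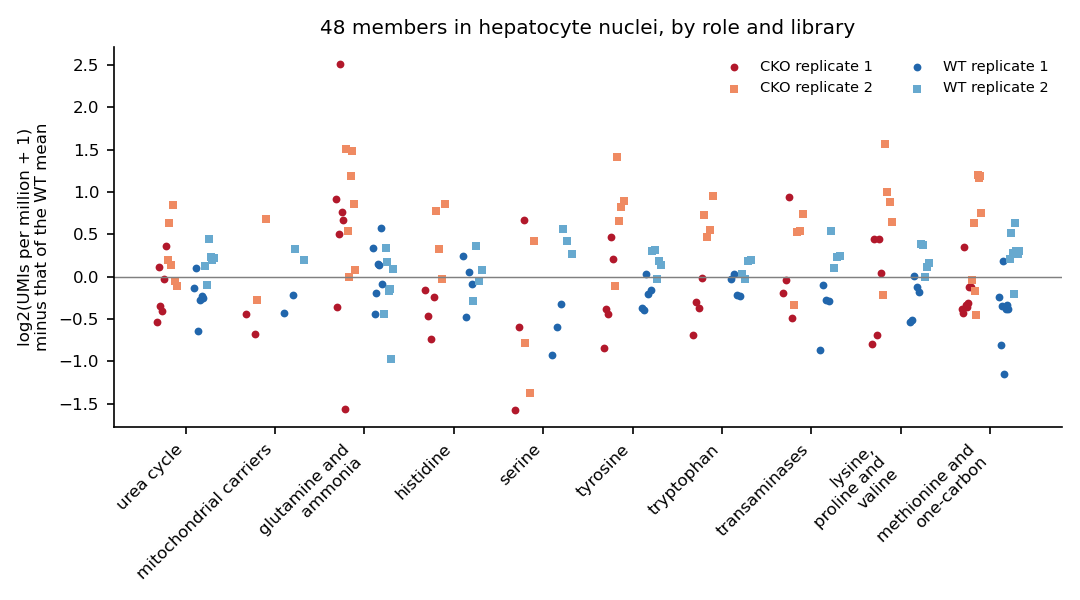
For each role (horizontal axis) the points give the level of its members in each library as log2(CPM + 1), less the same value of the mean CPM of the WT libraries. CKO replicate 2 lies above CKO replicate 1 in 38 of the 48 members, above both WT libraries in 32, and CKO replicate 1 lies below both WT libraries in 18. Shares over all genes were not computed.

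In 11 members, 22.9%, both CKO libraries were above both WT libraries, as in 11.7% of all genes. They were Otc, Glul, Oat, Rhbg, Slc1a2, Agxt, Fah, Gstz1, Gpt, Prodh and Aldh4a1. Cth, the cystathionine lyase that releases cysteine, was the only one with both below (224 and 207 in the CKO libraries and 321 and 246 in the WT libraries), as were 10.9% of all genes. In hepatocyte-rich nuclei 10 members were above and 9 below, against 12.4% and 13.2% of all genes.

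Of the glutamine and ammonia genes, Oat (ENSMUSG00000030934, chromosome 7, 132557478 to 132576398) had the smallest p of all members. It stood at 73.4 and 28.7 in the CKO libraries and 13.5 and 10.7 in the WT libraries, a log2 change of 2.07 (SE 0.532, unadjusted p = 0.0148). The change was 1.23 without CKO replicate 1 and 2.59 without CKO replicate 2. Both CKO libraries lay above both WT libraries and CKO replicate 1 was the highest. In the barcodes with the fewest UMIs Oat differed in the same direction, with 144 and 63.03 CPM in CKO and 37.7 and 14.6 in WT libraries, and its part in the result was not tested. Glul had 93.4 and 141 in the CKO libraries and 61.98 and 35.8 in the WT libraries, a change of 1.25 (SE 0.382, unadjusted p = 0.027). It was 1.501 without CKO replicate 1 and between 0.92 and 1.71 when any 1 library was left out. In the barcodes with the fewest UMIs Glul had 113 and 146 CPM in CKO and 93.7 and 49.03 in WT libraries. Rhbg had 2.57 and 4.87 in the CKO libraries and 1.304 and 0.888 in the WT libraries, a change of 1.68 (SE 0.707, unadjusted p = 0.0711) on 18 and 18 UMIs in CKO and 21 and 3 in WT. It was 2.06 without CKO replicate 1. All adjusted p-values of these genes were above 0.99 in edgeR's quasi-likelihood test. Slc1a2 had 134 and 154 in the CKO libraries and 126 and 42.3 in the WT libraries, and CKO replicate 1 was hardly above WT replicate 1. Gls2 had 81.96 and 154 in CKO and 77.2 and 134 in WT. Glud1 had 769.8 and 539.7 in CKO and 471 and 610.0 in WT. Slc7a2 had 653 and 2047 in CKO and 1817 and 2057 in WT. The genotypes overlap in Gls2 and Glud1, and in Slc7a2 CKO replicate 1 alone is low.

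Genes of proline and tyrosine breakdown and of transamination were also among the 10 with the smallest p. Prodh had 70.3 and 154 in the CKO libraries and 35.9 and 67.2 in the WT libraries, a change of 1.13 (SE 0.525, unadjusted p = 0.0924). The change was 1.61 without CKO replicate 1 and 0.47 without CKO replicate 2. With a WT library left out it was 0.74 (replicate 1) or 1.65 (replicate 2). Aldh4a1, which takes the product of Prodh and of Oat to glutamate, had 160.2 and 217 in the CKO libraries and 108 and 127 in the WT libraries, a change of 0.69 (SE 0.253, unadjusted p = 0.0488), and 0.89 without CKO replicate 1. In both genes the CKO libraries lay above the WT libraries, and they did so too in the barcodes with the fewest UMIs, where Prodh had 52.4 and 61.8 CPM in CKO and 26.8 and 29.2 in WT libraries and Aldh4a1 159 and 135 CPM in CKO and 112 and 86.6 in WT libraries. Of all 48 members, 25 had both CKO libraries above both WT libraries in those barcodes and 0 had both below. The share over all genes was not computed there, and the part of these barcodes in the results was not tested. Of the tyrosine genes, Fah, fumarylacetoacetase, had 201 and 256 in the CKO libraries and 125 and 163 in the WT libraries, a change of 0.66 (SE 0.262, unadjusted p = 0.0593), and 0.83 without CKO replicate 1. Gstz1, maleylacetoacetate isomerase, had 171 and 276 in the CKO libraries and 132 and 163 in the WT libraries, a change of 0.60 (SE 0.3197, unadjusted p = 0.129). The Gstz1 change was 0.91 without CKO replicate 1 and 0.22 without CKO replicate 2. Gpt, alanine transaminase, had 148 and 112 in the CKO libraries and 63.1 and 89.97 in the WT libraries, a change of 0.77 (SE 0.287, unadjusted p = 0.0504), and Agxt 40.8 and 34.1 in the CKO libraries and 20.1 and 30.5 in the WT libraries, a change of 0.58 (SE 0.308, unadjusted p = 0.127). Without CKO replicate 1 the values were 0.56 for Gpt and 0.46 for Agxt, and Agxt stood at 0.30 without WT replicate 1. Fah, Gstz1 and Agxt were likewise higher in both CKO libraries in the barcodes with the fewest UMIs, and Gpt, Rhbg and Sds overlapped there. Sds went the other way, with 62.1 and 108 in the CKO libraries and 98.1 and 275 in the WT libraries, a change of -1.14 (SE 0.599, unadjusted p = 0.125), but its groups overlap, since CKO replicate 2 was above WT replicate 1. Its change was -0.78 without CKO replicate 1. With WT replicate 2 left out, the library with the highest level, it was -0.20.

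The urea cycle enzymes overlapped between the genotypes apart from Otc. Cps1 had 2788 and 4639 in the CKO libraries and 3693 and 4399.9 in the WT libraries and a log2 change of -0.12 (SE 0.508, unadjusted p = 0.819). Ass1 had 1015 and 1412 in the CKO libraries and 825 and 1751 in the WT libraries, Asl 169 and 405 in the CKO libraries and 185 and 264 in the WT libraries and Arg1 699 and 689 in the CKO libraries and 607 and 817 in the WT libraries. In each of these the CKO and WT ranges overlapped. Otc had 248 and 356 in the CKO libraries and 246 and 213 in the WT libraries, with CKO replicate 1 hardly above WT replicate 1. Summed over the 6 genes the level was 4937 and 7515 in CKO and 5569 and 7462 in WT. Of the other groups, histidine genes summed to 454 and 850.0 in CKO and 563 and 648 in WT, tryptophan genes to 1179 and 2457 in CKO and 1444 and 1708 in WT, and methionine and one-carbon genes to 3176 and 5546 in CKO and 3003 and 5043 in WT. In these groups CKO replicate 2 was the highest library, and CKO replicate 1 was the lowest except for methionine and one-carbon genes.

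The CKO libraries also lay apart in members of the other roles. Of the histidine genes, Hal had 83.2 and 160.0 in CKO and 110.3 and 76.4 in WT, Uroc1 143 and 248 in CKO and 141 and 254 in WT, and Ftcd 135 and 291 in CKO and 151 and 169.6 in WT. Hpd had 413 and 1436 in CKO and 409 and 666 in WT, Hgd 506 and 1087 in CKO and 702 and 674 in WT, and Tat, tyrosine aminotransferase, 409 and 677 in CKO and 566 and 901 in WT. In each of these 6 genes CKO replicate 2 was above CKO replicate 1. Tdo2, the tryptophan dioxygenase that opens the pathway, had 306 and 815 in CKO and 483 and 504 in WT, and Kynu 594 and 1130.3 in CKO and 663 and 875 in WT. Mat1a, which makes S-adenosylmethionine, had 1395 and 1776 in CKO and 1541 and 2112 in WT, and Gnmt, the glycine methyltransferase that consumes it, 573 and 1203 in CKO and 444 and 1108 in WT. Bhmt, which remethylates homocysteine with betaine, had 444 and 1314 in CKO and 256 and 883 in WT. For Gnmt and Bhmt the second replicate was the higher one in both genotypes. Aass had 252 and 379 in CKO and 303 and 578 in WT, and Slc25a13 472 and 1217 in CKO and 649 and 865 in WT. None of the groups named here is separated by genotype.

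**Figure D5:**
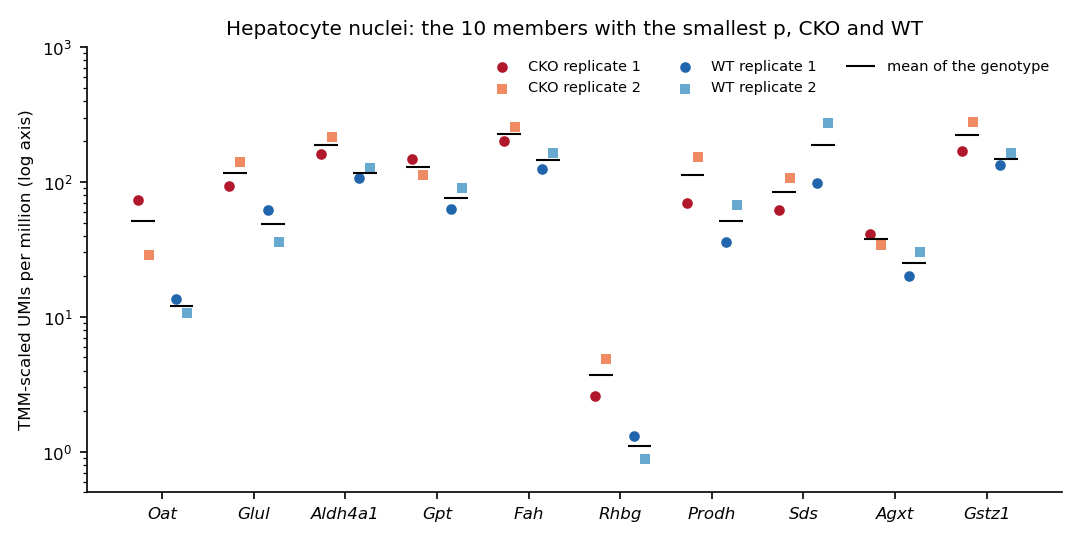
The vertical axis (log scale) gives the CPM in hepatocyte nuclei for the 10 members with the smallest p between the genotypes, with 1 point per library and the mean of each genotype as a bar. In 9 of the 10 both CKO points lie above both WT points, and in Sds the groups overlap. The 10 were picked by their p in these same libraries, which favours such separation, and none passed the test. Over all genes tested, both CKO values lay above both WT values in 11.7%.

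Values of other gene lists in the same nuclei are given beside these. The 9 genes of the fed, insulin-driven state all had a positive log2 change, with a median of 0.94 and sums of 3764 and 5795 in CKO and 1798 and 2211 in WT. Of the 18 tested pericentral genes 17 were positive (median 0.73), and all 14 secreted transcripts were (median 0.62). All 10 cholangiocyte markers were negative. Of the fasting, glucagon-driven genes 7 of 11 were positive (median 0.33), of the clock genes 9 of 12 (median 0.28) and of the stress genes 8 of 12 (median 0.20). Of the periportal genes 5 were positive and 7 negative (median -0.25). Macrophage markers were positive in 10 of 11, endothelial ones in 5 of 11 and mesenchymal ones in 2 of 11. None of these genes passed the test in edgeR, and their part in the member values was not tested. Of the 50 further amino acid genes 47 were tested, 0 passed and 37 had a positive change (median 0.25).

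Within the pericentral and within the periportal set, 0 of 47 members and 0% of genes passed in edgeR's quasi-likelihood test. At an unadjusted p under 0.05 there were 1 member and 138 genes in the pericentral and 4 members and 239 genes in the periportal set. DESeq2 called 0 members in either and 1 and 2 genes. The median log2 change of the members was 0.27 in the pericentral set (0.47 without CKO replicate 1) and 0.25 in the periportal set (0.68 without CKO replicate 1). The difference between the sets was lower in CKO than in WT for 2 of 47 members, against 2.67% of 11937 genes (0.226% higher and 2.45% lower). Oat had a log2 difference between the sets of -0.11 and -0.40 in the CKO and 1.10 and 0.77 in the WT libraries. The genotypes lie on opposite sides of 0, and the interaction was -1.28 (SE 0.2798, adjusted p = 0.013) in edgeR's quasi-likelihood test. Its level was 70.8 and 23.9 in CKO and 19.8 and 14.6 in WT in the pericentral set, and 76.6 and 31.9 in CKO and 8.83 and 8.28 in WT in the periportal set. As given above, Oat in hepatocyte-rich nuclei lay, after scaling, under the level of the barcodes with the fewest UMIs in 3 of 4 libraries. Slc1a2 had 2.88 and 3.93 in CKO and 4.45 and 3.55 in WT, which overlap, and an interaction of -1.09 (SE 0.296, adjusted p = 0.0466). In the periportal set Slc1a2 stood at 35.2 and 23.5 in CKO and 15.8 and 8.28 in WT, and Glul at 60.1 and 80.6 in CKO and 29.2 and 18.1 in WT. In both genes the CKO libraries were above the WT libraries there, as in 13.5% of the 11228 genes tested in that set. The periportal set of CKO replicate 1 reached up to an index of 0.667. The pericentral sets of the other libraries began at 0.607 (CKO replicate 2), 0.625 (WT replicate 1) and 0.667 (WT replicate 2). The part of these unlike limits in the levels was not tested.

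Neither interaction passed without WT replicate 1, without CKO replicate 1, in hepatocyte-rich nuclei, with DESeq2 or with 1 pair of index limits for all libraries. For Oat the value was -1.01, -1.51, -0.91, -1.30 and -1.14 in that order, and for Slc1a2 -0.34, -0.43, -0.91, -0.76 and -0.63. Without CKO replicate 1 the called members were Ass1 and Cth, among 119 of 11542 genes, and without CKO replicate 2 they were Glul, Slc1a2, Uroc1, Prodh2 and Oat, among 844 of 13232 genes. The share of hepatocyte-rich nuclei also ran in opposite directions. It was 66.9% and 99.0% in the pericentral against 44.4% and 86.7% in the periportal set of the CKO libraries, but 62.6% and 89.2% against 79.3% and 94.4% in the WT libraries. Its part in the interaction was not tested. In the hepatocyte-rich nuclei, where every nucleus meets that criterion, 0 members and 0.0183% of 10909 genes passed (0.0183% lower), and the interactions were -0.91 for both genes, with adjusted p-values of 0.911 for Oat and 0.889 for Slc1a2.

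In endothelial and mesenchymal nuclei, where the members lay, after scaling, near the level of the barcodes with the fewest UMIs, most members had positive log2 changes. None of 45 tested members passed in either class, and 0% of 5852 and 7145 genes did. At an unadjusted p under 0.05 there were 8 members and 216 genes in endothelial and 13 members and 325 genes in mesenchymal nuclei. The change was positive in 41 members of endothelial (median 0.58, 0.95 without CKO replicate 1) and 42 of mesenchymal nuclei (median 0.63, 1.07 without CKO replicate 1). The share of positive changes over all genes was not computed, so these counts do not set the members apart. With the replicate number as a block 3 members passed in each class, Oat, Hpd and Bhmt, as did 20 of 5852 genes in endothelial and 37 of 7145 genes in mesenchymal nuclei. Both CKO libraries were above both WT libraries in 26 members (57.8%) of endothelial and 23 (51.1%) of mesenchymal nuclei, against 15.2% of all genes in each. Oat had 124 and 62.8 in the CKO libraries and 21.8 and 21.1 in the WT libraries in endothelial nuclei, on 59 and 5 UMIs in CKO and 50 and 4 in WT, a log2 change of 2.32 (SE 0.378, unadjusted p = 0.000187). In mesenchymal nuclei it had 94.96 and 97.7 in the CKO libraries and 12.9 and 19.6 in the WT libraries, a change of 2.75 (SE 0.405, unadjusted p = 1.54e-05) with an adjusted p of 0.0777 in edgeR's quasi-likelihood test. In the barcodes with the fewest UMIs 44 of the 48 members were likewise higher in CKO on the mean of the libraries, with a median log2 ratio of 0.38. These values were not computed for all genes, so they do not set the members apart from other genes. Macrophage and cholangiocyte nuclei were too few in CKO replicate 2 for this comparison.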

How the data were processed

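Single-nucleus UMI counts per gene and barcode were used as deposited by the authors, 1 matrix per library, made with Cell Ranger 5.0.1 on mm10 per the submitters' processing notes. The members, the gene lists and the tests were chosen with earlier results of these data known. Hepatocyte nuclei were gated as described above. No doublet caller was run, and the limit on nonparenchymal markers removes barcodes that also carry such markers. Raw counts were summed per library and set, filtered with edgeR's filterByExpr and fitted with edgeR 4.0.16 (TMM factors, quasi-likelihood test, Benjamini-Hochberg adjustment over all genes tested) in R 4.3.3. The genotype fits had no further term. The zone fit had the library as a block, and the interaction asked whether its zonal difference differed between the genotypes. Adjusted p-values under 0.05 were called, and an SE is the fitted log2 change divided by the square root of its F statistic. DESeq2 1.42.0 was an alternative, and the other alternatives were other limits on UMIs, markers and mitochondrial share, other scaling, no filter, the replicate number as a block, thinning to 1 total, another index, and each library left out. The pipeline was checked on simulated counts with known changes. These were drawn independently at a fixed dispersion, so the check does not cover replicates that deviate together or CKO libraries as unlike as these. Values per library are given for members past the threshold, for the 10 members with the smallest p between the genotypes and for the 3 with the largest zonal difference in each direction, levels over the barcodes with the fewest UMIs for members at 2 times or more in all libraries, and other values to show a role. Coordinates are those of GENCODE M21 (GRCm38). UMIs limit the precision of rare transcripts, and ratios to the barcodes with the fewest UMIs carry counting error that was not modelled.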

Additional observations from a re-analysis of the deposited data

Results flagged for a closer look

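A pair of members was picked out because the difference between pericentral and periportal nuclei differed between the genotypes in the interaction test of edgeR. For Oat the value, CKO minus WT, was -1.28 on the log2 scale, and for Slc1a2 it was -1.09. Both rest on 2 libraries per genotype, and the alternatives given in the report under which neither passed apply to both.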

How the results depend on the processing

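Over the 12 settings run for the zonal comparison, 10 of the 13 called members passed in every one, and Slc7a2 (lost without WT replicate 2, adjusted p = 0.0781), Arg1 and Hpd did not (the settings are given with their values in the report). Leaving out 1 library gave 10 to 14 called members and 269 to 566 genes, against 13 and 397 with all. Nuclei with at least 5000 UMIs gave 21 members and 781 genes, hepatocyte-rich nuclei 22 and 914. Markers under 0.25% gave 671 genes and DESeq2 228. For the interaction the count was 2 members and 319 genes. It was 0 members and 9 genes with DESeq2, 0 and 2 in hepatocyte-rich nuclei, 0 and 26 with 1 pair of index limits, and 496 genes with no filter on low counts. Leaving out 1 library gave 0 to 5 members and 0 to 844 genes. For hepatocyte CKO against WT, DESeq2 called 3 genes, where edgeR called 0. With no filter 2 members and 83 of 20950 genes passed in the periportal set, 1 and 26 of 18248 in endothelial and 2 and 34 of 18358 in mesenchymal nuclei. Leaving out 1 library gave 0 to 4 members and 5 to 102 genes in endothelial and 0 to 8 members and 0 to 154 genes in mesenchymal nuclei. The cause of these differences was not tested.

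With the replicate number as a block the hepatocyte comparison called 0 members and 0 genes, and the endothelial and mesenchymal comparisons 3 members each, with 20 and 37 genes. Replicates with the same number deviated together (Pearson's r = 0.545 over 13849 genes), but with 2 pairs and no label that ties them the numbers were not taken as a pairing. Cholangiocyte nuclei were too few in CKO replicate 2 for a genotype fit, macrophage nuclei were fitted at 0.25% of markers (0 of 43 members), and at 1% no fit was run for endothelial, cholangiocyte or macrophage nuclei.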

Other observations

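Genes of the fasting and the fed state were also read between pericentral and periportal nuclei with edgeR's quasi-likelihood test. Of 11 tested genes of the fasting, glucagon-driven state, 2 were higher and 1 lower in the pericentral set, against 3.33% of all genes. The lower one, Pck1, a gluconeogenic enzyme, is itself part of the zone index. Cyp4a14, a fatty acid hydroxylase driven by PPAR alpha, had 76.2 and 6.94 in CKO and 2.83 and 22.4 in WT libraries in the pericentral set, and 20.5 and 7.55 in CKO and 0.849 and 0.753 in WT libraries in the periportal set, a difference of 1.85 (SE 0.334, adjusted p = 0.00226). It was close to even in CKO replicate 2. Pdk4, the kinase that shuts off pyruvate dehydrogenase, differed by 1.15 (SE 0.288, adjusted p = 0.0311). Of 9 genes of the fed, insulin-driven state, 2 were higher, the lipogenic enzymes Me1 by 0.51 (SE 0.105, adjusted p = 0.00686) and Elovl6 by 0.41 (SE 0.0998, adjusted p = 0.0243), and both were higher in 4 of 4 libraries.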
